A study of Mus musculus with 12 samples.

Results

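The genes described here encode the proteins of the cytosolic ribosome, measured in the cerebral cortex of lupus-prone and control mice. They were taken as the genes whose name on the array follows the pattern of the large subunit (Rpl), the small subunit (Rps), the stalk proteins Rplp0, Rplp1 and Rplp2, or Rpsa. The pattern found 84 genes, 51 of the large subunit (the stalk genes included) and 33 of the small, out of 29608 gene names on the array. They were read by 201 spots of 192 probes among 43020 spots. Of these, 81 genes and 184 spots passed a filter that removed spots marked by the scanner software or under 2 times their local background, among 17302 genes and 24255 spots that passed it in all. RefSeq (GRCm38.p6) holds all 84 symbols, 83 as protein-coding genes and Rps4l as a transcribed pseudogene.

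The study asked how the cortex of mice with neuropsychiatric lupus differs from that of controls, and how the loss of Fn14, the receptor of the cytokine TWEAK, alters it. The 3 groups of 4 female mice each, about 12 weeks old, were compared. MRL/lpr mice carry the lpr loss-of-function mutation of Fas, a death receptor, on the MRL background and develop lupus-like disease. Fn14ko mice (labelled Fn14koMRL) were bred as littermates of the MRL/lpr mice. They also carry the lpr mutation and lack Tnfrsf12a, the gene of Fn14. MRL/+ mice (labelled MRL/MpJ) share the MRL background without the lpr mutation and were bought from a supplier, whereas the other groups were bred elsewhere. The 6 arrays were of the 2-colour kind, each carrying a pair of mice from one group. Odd-numbered replicates were labelled with Cy3 and even-numbered ones with Cy5, and each group lay on a slide of its own, scanned separately. Group, slide and scan therefore cannot be told apart in any comparison below.

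The cytosolic ribosome is the particle that reads messenger RNA and joins amino acids into protein. Its small subunit decodes the message and its large subunit makes the peptide bond, and the cell makes their proteins in matched amounts. Many ribosomal protein messenger RNAs begin with a run of pyrimidines at the 5′ end, the 5′ TOP motif, through which mTOR signalling sets how strongly they are translated. Mammalian genomes also carry many processed copies of these genes, so that a probe for one gene can match others. In neurons, ribosomes lie in the cell body and also in dendrites, where local translation serves synaptic change.

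The probes behind the results named most often are shown first, each in lower case from 5′ to 3′ as the array files give it, because they decide which transcript was read. Capitals mark the longest stretch shared with a probe that carries another gene name on the same array.
Rps19: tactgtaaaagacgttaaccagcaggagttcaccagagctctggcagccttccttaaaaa
Rpl12, first probe: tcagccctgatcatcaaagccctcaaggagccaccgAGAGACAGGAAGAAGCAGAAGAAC
Rpl12, second probe: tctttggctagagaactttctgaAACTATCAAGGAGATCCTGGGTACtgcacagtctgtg
Rps24: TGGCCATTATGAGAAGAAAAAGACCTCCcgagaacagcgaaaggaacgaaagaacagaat
Rps27a: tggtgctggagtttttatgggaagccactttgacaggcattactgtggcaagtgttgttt
Rps4l: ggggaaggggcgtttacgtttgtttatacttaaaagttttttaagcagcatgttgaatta
The files place the Rps19 probe at chr7:25670166-25670225 (mm9, forward strand) and the Rps4l probe at chr6:148304043-148304102 (forward strand). The Rpl12 probes lie at chr2:32818526-32818585 and chr2:32819082-32819298, the Rps24 probe at chr14:25311190-25312666, all on the forward strand, and the Rps27a probe at chr11:29445914-29445973 on the reverse strand. Of the 200 placed spots, 42 were given a place longer than the 60 bases of the probe, 39 of them over 100 bases. Exon and untranslated parts were not assigned, since no annotation of mm9 was used. The capitals cover 24 bases in each Rpl12 probe and 28 in the Rps24 probe, and the other probes have none. In all, 86 of the 192 probes, from 49 genes, share at least 20 bases with a probe of another name, and these readings are uncertain as to which copy they measured. Of the placed spots, 9 from 4 genes (Rpl13, Rpl36, Rps27 and Rps29) lie on another chromosome than RefSeq gives for the gene. They include every spot of Rps27 and of Rps29, so the values of these genes below are uncertain in the same way.

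The start of the gene is shown for members the results turn on, as RefSeq (GRCm38.p6) gives it. Each window runs from 10 bases before the outermost annotated start to 20 after it. Where a gene has several annotated starts, the others were not read. Capitals mark a C followed by 4 or more pyrimidines that begins within 5 bases of the start on the gene's strand.
Rpl12: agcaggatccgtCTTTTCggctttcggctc
Rps24: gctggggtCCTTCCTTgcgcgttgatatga
Rps26: gcaagccgccggatCCTCTTTCgagtcttg
Rps19: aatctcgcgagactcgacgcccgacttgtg
Rpl5: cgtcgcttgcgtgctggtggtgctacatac
In GRCm38.p6 these windows are chr2:32961702-32961731, chr14:24490668-24490697, chr10:128626487-128626516 (reverse strand), chr7:24884582-24884611 and chr5:107900518-107900547. Of 63 members with an entry, 29 (46.0%) held such a run at this outermost start, against 18.5% of 27025 genes. The longest run was 20 bases. The windows of Rps19 and Rpl5 do not hold these letters. This says nothing on a run at another start or on how either is translated.

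A signal below is the background-corrected intensity divided by the median of the kept spots in that channel, so it is a multiple of that median, has no unit and levels of different genes are not comparable. The MRL/lpr mice had a median signal over the 81 members of 24.8, 30.1, 27.7 and 29.6. In Fn14ko this median was 24.4, 27.3, 27.4 and 32.4. For the controls it came to 20.4, 19.3, 28.7 and 18.9. MRL/+ replicates 1, 2 and 4 lay below all mice of the other groups, and MRL/+ replicate 3 lay within their range. As group means of log2 values these were 4.81 ± 0.13, 4.79 ± 0.17 and 4.43 ± 0.28 (SD, n = 4). The 95th percentile of all 17302 genes moved alongside, at 4.43 ± 0.11, 4.3 ± 0.15 and 4.14 ± 0.25. After removal of the group and dye means, MRL/+ replicate 3 deviated by 0.43 in the member median and by 0.38 in that percentile. Among channels, both Cy5 readings of MRL/+ differed from the rest, with 35.0% and 21.2% of all spots well above background against 56.6% or more in the other 10 channels. Their dark spots read 6.88 and 6.66 times the local background, against 1.26 to 2.75 elsewhere. Among member spots 84.1% to 97.5% were well above background in each channel, and none was saturated. The part of these channels in the results was not tested, and member values without them are given beside the counts.

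**Figure D1:**
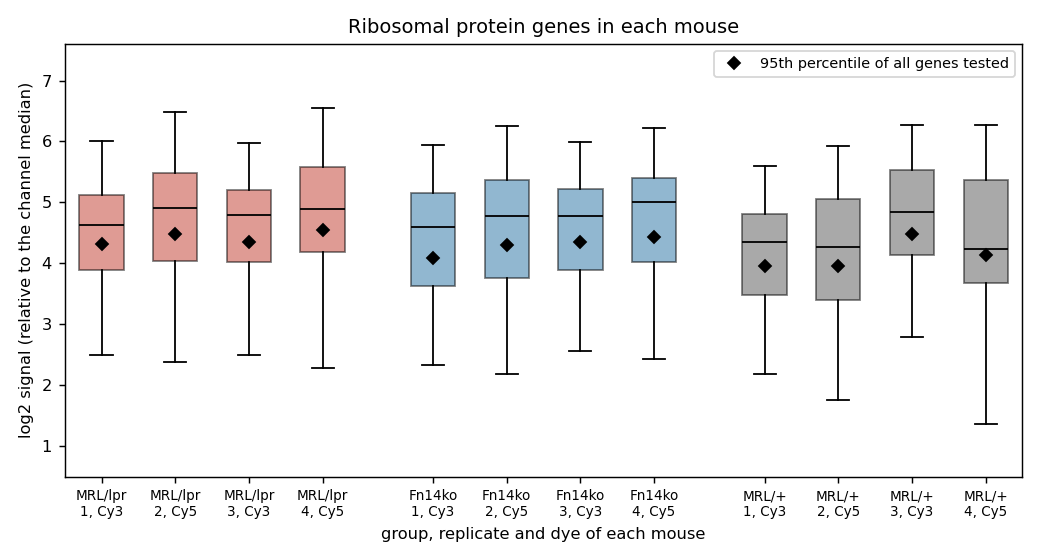
Log2 signal of the 81 ribosomal protein genes (vertical axis) in each of the 12 mice (horizontal axis, with replicate and dye). Boxes span the quartiles with the median as a line, whiskers the 5th to 95th percentile of the members, and diamonds the 95th percentile of all genes tested. MRL/+ replicate 3 sits at a median signal of 28.7 beside 20.4, 19.3 and 18.9 in the other MRL/+ mice, and the diamonds follow the boxes.

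The targeted genes were compared with the labels. Tnfrsf12a signal was 0.739, 0.777, 0.604 and 0.655 in Fn14ko, against 1.86, 1.57, 1.90 and 1.38 in MRL/lpr and 1.02, 1.18, 0.943 and 1.28 in MRL/+. All Fn14ko mice lay below all others, and the difference passed against MRL/lpr (limma adjusted p = 0.00287) and not against MRL/+ (-0.67, limma adjusted p = 0.104). Fas, which carries the lpr mutation, was dim, at 0.164 to 0.284 in MRL/lpr, 0.171 to 0.331 in Fn14ko, and 0.458, 0.647, 0.186 and 0.643 in MRL/+. The mouse labelled MRL/+ replicate 3 lay within the range of the mice with the mutation, and no comparison passed for Fas (limma adjusted p = 0.100 in MRL/lpr against MRL/+). Member results without this mouse are given beside those with it, and the markers that follow were not read without it. Cortical excitatory neuron markers were present in every group, 8 of 8, with a summed signal between 161 and 281 in all mice. In MRL/lpr against MRL/+, 1 of them was higher (Tbr1) and 3 lower (Neurod2, Neurod6 and Slc17a7), and against Fn14ko 1 was lower (Neurod6). Of the blood markers, 3 of 6 rose in MRL/lpr against MRL/+, with summed signals of 140 to 357 against 43.5 to 76.7, and 46.6 to 141 in Fn14ko. In the same comparison 3 of 7 endothelial markers were higher (summed signal 23.5 to 25.3 against 11.3 to 15.3), while Cdh5 had -0.89 (limma adjusted p = 0.104). Of the myelin markers 2 of 8 were lower (50.9 to 76.5 against 74 to 94.8), and 1 of 7 choroid plexus markers was lower (7.34 to 101 against 17.7 to 266). Of 10 microglia markers Aif1 was higher (1.17, limma adjusted p = 0.0271), and of 9 neuron markers Nefl was lower (-0.68, limma adjusted p = 0.0286). In Fn14ko against MRL/+, 2 endothelial markers were higher, while Cdh5 had -1.16 (limma adjusted p = 0.118). In MRL/lpr against Fn14ko 2 blood markers were higher, and 2 myelin markers and 1 choroid plexus marker lower. No striatum marker passed, with summed signals of 15.8 to 169 in Fn14ko, 20.8 to 43.5 in MRL/lpr and 10.7 to 20.7 in MRL/+. The part of these cell types, or of striatum in the tissue taken, in the member values was not tested. In bulk tissue, fewer cells of a type and less RNA per cell cannot be told apart.

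The first comparison asked what the lupus-prone cortex shows against the MRL/+ control. Most ribosomal protein genes read slightly higher in MRL/lpr, but few passed the test. The median log2 fold change of the 81 members was 0.26 (quartiles 0.11 and 0.44), against -0.10 over all genes, and 71 of 81 (87.7%) were above 0 against 43.4% of all genes. Past an adjusted p of 0.05 in limma, 2 members were higher (Rpl12 and Rpl41) and 1 lower (Rps4l), while 14.4% of all genes tested passed, 6.03% higher and 8.37% lower. Groups did not overlap for 4 members with higher signal (Rpl12, Rpl22 and Rpl41 among them) and 1 with lower (Rps4l), against 10.8% and 13% of all genes. These shares of members are below those of all genes. At an unadjusted p under 0.05 there were 9 higher and 2 lower, against 13.5% and 21.2%.

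Rpl12, a large subunit protein at the base of the stalk, read 39.6, 45.3, 39.5 and 47.3 in MRL/lpr and 20.6, 23.4, 33.7 and 31.1 in MRL/+. The groups did not overlap, and both Rpl12 probes were higher, by 0.56 and 0.75. Its log2 fold change was 0.68 (SE 0.19, limma adjusted p = 0.0336). Rpl41, the smallest protein of the large subunit, read 99.8, 143, 109 and 134 in MRL/lpr and 68.2, 87.5, 84.5 and 66.5 in MRL/+. Every MRL/lpr mouse lay above every MRL/+ mouse, and the fold change was 0.66 (SE 0.20, limma adjusted p = 0.0423). Rps4l, a copy related to the X-linked small subunit gene Rps4x, read 0.593, 0.978, 0.960 and 0.989 in MRL/lpr against 1.11, 1.78, 1.54 and 2.56 in MRL/+, all close to the channel median. It fell by 0.95 on the log2 scale (SE 0.24, limma adjusted p = 0.0217), again with no overlap. Neither Rpl12 nor Rpl41 passed with the MRL/+ Cy5 mice left out, where their values were 0.59 (limma adjusted p = 0.191) and 0.45 (0.254), and Rps4l had -0.84 (0.174). Of 12 fits that each left out a mouse or an array, Rpl12 passed in 2, Rpl41 in 4 and Rps4l in 8, with adjusted p up to 0.171, 0.193 and 0.134. Without MRL/+ replicate 3 all 3 passed, at 0.80, 0.81 and -0.96 (limma adjusted p = 0.0107, 0.00975 and 0.0341).

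Besides those that passed, the highest fold changes were those of Rps21 (0.79), Rpl32l (0.74), Rpl39 (0.74), Rps26 (0.72) and Rpl31 (0.71), and none of these passed. Rps21 and Rps26 are small subunit proteins, and Rpl31 and Rpl39 lie around the tunnel through which the new peptide leaves. Rps21 read 9.35, 9.17, 11.5 and 9.84 in MRL/lpr and 7.97, 3.41, 15.6 and 2.58 in MRL/+. Its low MRL/+ values were those of the Cy5 mice, and MRL/+ replicate 3 was the highest of all mice. The Cy5 mice were also the lowest of the MRL/+ group for Rpl31 (7.91, 4.89, 11.1 and 3.94, against 9.5 to 11.7 in MRL/lpr) and for Rpl39 (8.38, 4.80, 10.5 and 2.57, against 7.54 to 11.2). Without the MRL/+ Cy5 mice, Rps21 had -0.07 and Rps26 had -0.06. At the low end, beside Rps4l, stood Rpl7l1 (-0.59), a paralog of Rpl7, then Rplp2 (-0.43), Rpl30 (-0.42) and Rps19 (-0.21), none of which passed.

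The shift of the whole family was not stable. With the MRL/+ Cy5 mice left out, 0 members passed and the median was 0.08, and with MRL/+ replicate 3 left out 23 passed, 21 of them higher, with a median of 0.41. In that fit 32.1% of all genes passed. The median was -0.22 from the scanner's processed signal, -0.01 after loess, 0 after quantile normalization, and -1.34 or -0.37 with background taken from negative control spots.

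**Figure D2:**
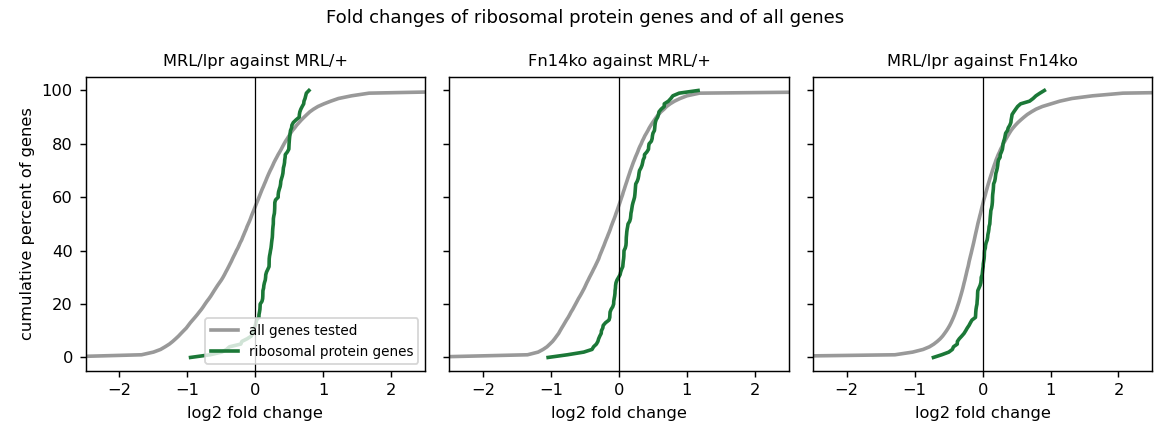
Cumulative percent of genes (vertical axis) against log2 fold change (horizontal axis) for the 81 ribosomal protein genes (green) and all 17302 genes tested (grey), 1 panel per comparison. The member curve lies right of 0 at its middle in each panel, with medians of 0.26, 0.13 and 0.11 against -0.10, -0.10 and -0.07 over all genes.

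The second comparison set the Fn14ko cortex against MRL/+, that is, mice with the lpr mutation and without Fn14 against the control. Here 1 member passed, Rps19, and it was lower. Over all genes 0.954% passed, 0.237% higher and 0.717% lower. The median member fold change was 0.13 (quartiles -0.06 and 0.37), against -0.10 over all genes, and 56 of 81 (69.1%) were above 0, against 43% of all genes. Groups did not overlap for 7 members with higher signal, close to the 7.42% of all genes, and for 1 with lower, against 6.09%. At an unadjusted p under 0.05 there were 10 higher and 2 lower, against 10.6% and 11.3%.

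Rps19 is a small subunit protein needed to mature the small subunit, and its mutation causes Diamond-Blackfan anaemia in people. It read 5.88, 5.78, 5.90 and 6.57 in Fn14ko, 10, 10.5, 17.6 and 12.7 in MRL/+, and 9.92, 9.30, 11.1 and 12.8 in MRL/lpr. The Fn14ko mice lay within a narrow range below every mouse of both other groups. Against MRL/+ it fell by 1.04 on the log2 scale (SE 0.22, limma adjusted p = 0.0440), and the 2-sided exact permutation test gave p = 0.0286, the smallest the 70 divisions of the mice allow. Several of the 33 alternative settings, such as those with no dye term or no array block, cannot change the fold change of Rps19. This is because every group has the same layout of dyes and arrays. The direction held under all 33 (-1.57 to -0.32), and the gene passed in 21 of them. It did not pass without the MRL/+ Cy5 mice (-1.17, limma adjusted p = 0.182), without Fn14ko replicate 2 (-1.03, 0.149), 3 (-1.01, 0.107) or 4 (-1.10, 0.0536), or without MRL/+ replicate 4 (-1.12, 0.175). The same held without either Fn14ko array (-1, 0.103 and -1.09, 0.224) or without the second MRL/+ array (-0.77, 0.110). It passed without MRL/+ replicate 3 (-0.89, limma adjusted p = 0.0467). The gene is read by a single spot.

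The highest fold changes were those of Rps26 (1.16), Rpl31 (0.82), Rpl27a (0.78), Rpl39 (0.74) and Rpl32l (0.67), and none passed. Rps26, which sits where the message leaves the small subunit, read 17.6, 23.2, 18.2 and 16.9 in Fn14ko and 14.1, 7.03, 14.3 and 3.53 in MRL/+. The groups did not overlap, with the lowest values again in the Cy5 mice of MRL/+ (limma adjusted p = 0.175). Rpl27a, a large subunit protein, read 31.1, 32.2, 34.1 and 31.3 in Fn14ko against 21.3, 17.9, 26.0 and 12.5 in MRL/+ and 22.3, 26.2, 23.6 and 22.8 in MRL/lpr. Its Fn14ko values were above all 8 others, without passing against either group (limma adjusted p = 0.122 and 0.365). At the low end, after Rps19, were Rpl7l1 (-0.69), Rpl5 (-0.41), Rpl22l1 (-0.38) and Rpl24 (-0.33), which did not pass. The median was -0.01 and 0 members passed without the MRL/+ Cy5 mice, and 12 passed (10 higher) without MRL/+ replicate 3, where 12.5% of all genes did. It was also below 0 from the processed signal (-0.19), after scaling to the 75th percentile (-0.12), with only spots well above background (-0.09) and with background from negative control spots (-0.35).

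**Figure D3:**
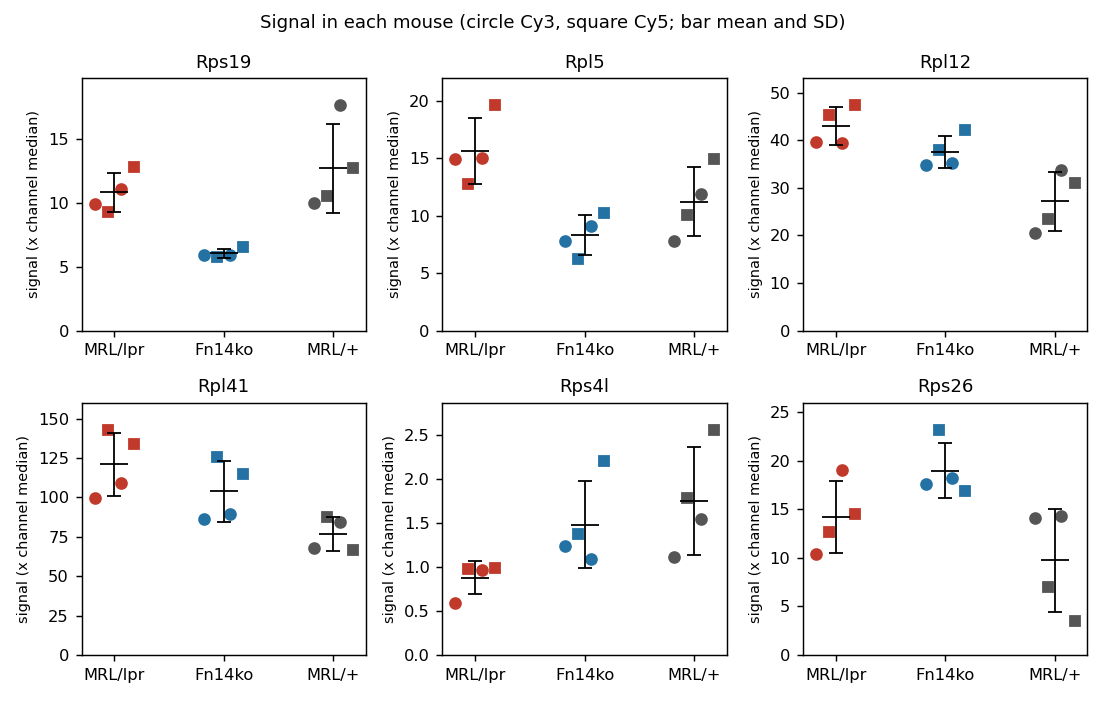
Signal of 6 ribosomal protein genes (vertical axes, in multiples of the channel median) in each mouse of the 3 groups, with circles for Cy3, squares for Cy5, and bars for mean and SD (n = 4). Rps19 lies between 5.78 and 6.57 in Fn14ko, below all other mice, and the low MRL/+ values of Rps26 are those of the Cy5 mice.

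The third comparison, MRL/lpr against Fn14ko, asked what the loss of Fn14 changes in mice that carry the lpr mutation. No member passed in limma, against 4.57% of all genes (2.58% higher and 1.99% lower). At an unadjusted p under 0.05 there were 5 higher (Rpl35a, Rpl5, Rps19, Rps24 and Rps3a1) and 1 lower (Rps4l), against 9.28% and 9.31% of all genes. The median member fold change was 0.11 (all genes -0.07), or -0.98 with background from negative control spots, and 54 of 81 (66.7%) were above 0, against 42.8%. Groups did not overlap for 7 members with higher signal in MRL/lpr and 2 with lower (Rpl27a and Rps4l), against 8.91% and 11.3% of all genes.

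Rps19 was higher in MRL/lpr by 0.83 (SE 0.22, limma adjusted p = 0.0501), with no overlap. Rpl5, which with Rpl11 and the 5S RNA can bind Mdm2 and stabilise p53, read 14.9, 12.8, 15.0 and 19.6 in MRL/lpr, 7.78, 6.23, 9.11 and 10.2 in Fn14ko, and 7.77, 10.1, 11.9 and 14.9 in MRL/+. Every MRL/lpr mouse was above every Fn14ko mouse (log2 fold change 0.91, SE 0.26, limma adjusted p = 0.0660). Rps24, a small subunit protein, had 0.76 (limma adjusted p = 0.137), Rps21 had 0.72 (0.462) and Rpl35a had 0.56 (0.257). Among the lowest values were those of Rps4l (-0.72), Rps26 (-0.45), Rpl27a (-0.44) and Rpl30 (-0.37). Rps4l in Fn14ko read 1.24, 1.38, 1.09 and 2.20, above every MRL/lpr mouse (limma adjusted p = 0.119). With only spots well above background 6 of 79 members passed, all higher, against 16.1% of all genes. After quantile normalization 9 did, 4 higher and 5 lower, against 11.6% of all genes, with a median of -0.06.

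By role, the stalk proteins, which recruit the elongation factors, did not pass in any comparison. Rplp1 had 0.44 in MRL/lpr against MRL/+ (limma adjusted p = 0.126) and 0.37 against Fn14ko (0.336). Rplp0 had 0.12 and 0.22 and Rplp2 -0.43 and -0.17 in the same comparisons. Rplp2 in MRL/lpr ranged from 32.4 to 81.1, a wider spread than between the group means of 55.0, 59.5 and 71.7. Rpsa, a small subunit protein also known as a laminin receptor, had fold changes of 0.07, -0.08 and 0.14 in the 3 comparisons in order.

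The small subunit genes Rps14 (0.07, -0.08 and 0.15) and Rps29 (0.05, -0.06 and 0.11) did not pass, and their groups overlapped in every comparison.

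The paralogs with tissue-restricted use had no fold change to give. Rpl10l, Rpl39l and Rpl3l, known for expression in testis or muscle, had no spot that passed the filter. Their spots were well above background in at most 2 of 4 mice of any group. One of the Rpl10l spots read 0.0734, 0.156, 16.4 and 65.2 in MRL/lpr, and 0.0438 to 0.611 in the other groups. It was thus bright in both mice of the second MRL/lpr array and in no other mouse. Rpl22l1, the paralog of Rpl22, had -0.20, -0.38 and 0.19, while Rpl22 itself read 10.4 to 12 in MRL/lpr and 6.46 to 10.1 in MRL/+, without overlap (0.54, limma adjusted p = 0.0705). Rps27l had 0.17, 0.16 and 0.01, and Rps27 had 0.28, 0.13 and 0.15. Rpl3 read 43.2, 121, 50.2 and 48.1 in MRL/lpr, where 1 mouse was far above the rest. Rpl10 had 0.14, 0.17 and -0.03. Rpl32l is read by 1 spot, and whether its signal comes from the related Rpl32 was not tested.

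Spots of the same gene often differed in fold change. Even spots of the same Rpl23 probe ran from -0.69 to 0.04 in MRL/lpr against Fn14ko. The counts that follow were not made for all genes. Of 58 members with several kept spots, the spots spanned more than 1 log2 unit in fold change in 7, 8 and 8 members in the 3 comparisons, and differed in sign in 26, 30 and 30. Among the genes with such a span in some comparison were Rpl7a, Rpl17, Rpl23, Rpl31, Rpl36, Rps3, Rps4x, Rps6, Rps18, Rps24, Rps27 and Rps27a. The widest was Rpl17, a large subunit protein near the exit tunnel, whose 7 spots ran from -0.83 to 1.52 in Fn14ko against MRL/+. Its highest spot read 10.3, 4.23, 18.1 and 3 in MRL/+, lowest in the Cy5 mice, against 17.3 to 22.4 in Fn14ko. Rps27a, which is made as a fusion with ubiquitin, had spots at 1.43 and -0.80 in Fn14ko against MRL/+. The spot shown above read 26.2, 28.6, 30.3 and 21.9 in Fn14ko against 21.9, 4.55, 33.9 and 2.83 in MRL/+, so its MRL/+ values split by dye. The other read 8.34, 8.97, 13 and 14.3 in Fn14ko against 13.2, 16.7, 25.7 and 22.3 in MRL/+, with no such split. The first spot of Rps24, shown above, read 23.2, 23.6, 25.1 and 28.2 in MRL/lpr, all above its readings of 5.79, 5.82, 9.96 and 8.69 in Fn14ko. Its fold change was 1.76 (limma adjusted p = 0.00814 over all spots), and the other kept Rps24 spots had 0.96 and 0.34, neither past the threshold.

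Probes that overlap on the transcript differed as much as other pairs in MRL/lpr against MRL/+. They differed by more in Fn14ko against MRL/+, and by less in the third comparison. Between 24 pairs that share 20 bases or more, the median difference in fold change was 0.36, 0.60 and 0.15 log2 units in the 3 comparisons, and between the 127 other pairs 0.36, 0.33 and 0.39. A pair of Rpl36 probes sharing 47 bases had 1.18 and -0.23 in MRL/lpr against MRL/+. In MRL/+ the first read 20.5, 6.01, 35.1 and 4.93, and the second 35.2, 32.7, 53.2 and 30.2. A pair of Rps27 probes sharing 48 bases had 1.00 and -0.65 in Fn14ko against MRL/+. In MRL/+ the first read 36.9, 23.2, 52 and 10.9, and the second 25.3, 33.8, 45.5 and 48.2. The first spot of each pair was thus lowest in the Cy5 mice of MRL/+. The part of a spot's place on the array in such differences was not tested. Taken spot by spot over 24255 spots, limma called 5 member spots higher and 2 lower in MRL/lpr against MRL/+, 0 and 1 in Fn14ko against MRL/+, and 5 and 1 in MRL/lpr against Fn14ko, of 184 member spots. Over all spots 5.85% were called higher and 9.4% lower in the first comparison, 0.4% and 0.94% in the second, and 2.25% and 1.9% in the third. The called spot of Rps6 in the third comparison was lower, with signals of 1.10 to 2.89, and the brighter spots of this gene did not pass.

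**Figure D4:**
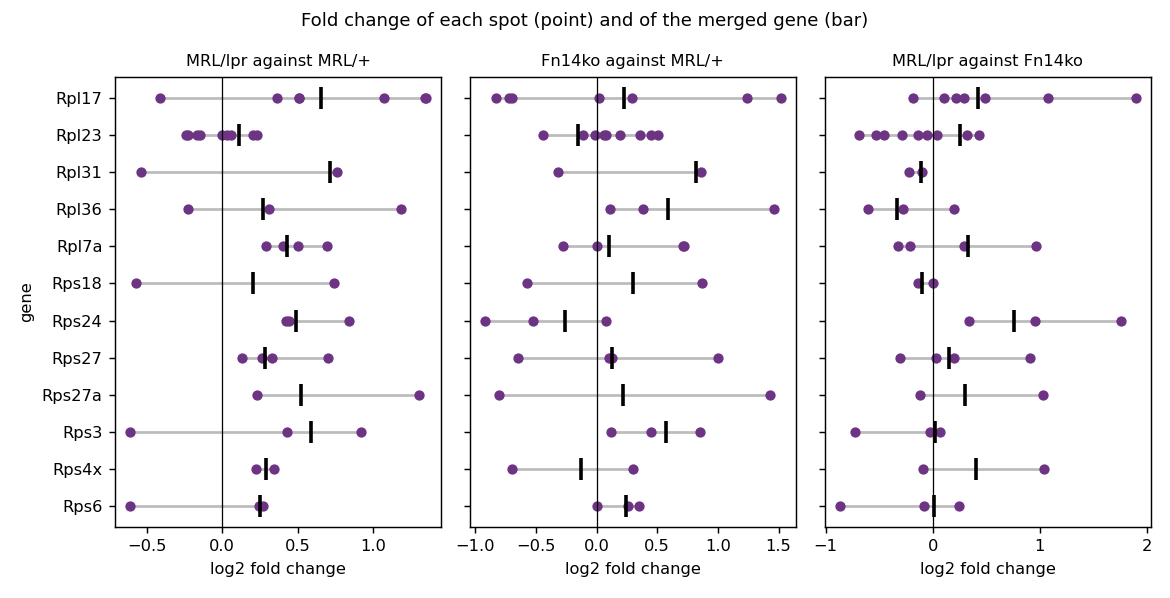
Log2 fold change (horizontal axes) of every kept spot (points) of 12 ribosomal protein genes whose spots spanned more than 1 log2 unit in some comparison, with the merged gene as a bar, 1 panel per comparison. Points of Rpl17, Rps27a and Rps27 lie on both sides of 0 in Fn14ko against MRL/+.

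The relative expression variability of the study, a coefficient of variation over the 4 mice of a group widened for small numbers, was also computed. The MRL/lpr mice had a median over members of 25%, the Fn14ko mice of 22% and the MRL/+ mice of 42.9%, against 31.5%, 36.5% and 52.1% over all genes. This measure is smaller for genes with more spots, and the plain coefficient of variation of the members was 15.9%, 12.8% and 26.3%, against 15.5%, 17.9% and 25.9%. In both measures the MRL/+ mice varied most. After removal of group and dye means the members moved together, with a mean pairwise Pearson correlation of 0.49 over the 12 mice and 0.32 without the MRL/+ mice, against 0.01 among all genes. The points share their channel's scaling, and no set of equally bright genes was compared. The 95th percentile of all genes deviated with the member median, with opposite signs in no mouse. It did so by 0.38 beside 0.43 in MRL/+ replicate 3 and by 0.12 beside 0.12 in Fn14ko replicate 4. The joint movement is thus not shown to be particular to the members. Single genes followed the member median to different degrees, from -0.84 for Rpl7l1 and -0.18 for Rpl30 upward.

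Genes around the ribosome were taken from fixed lists. These genes and those of the next paragraph were not read without the MRL/+ Cy5 mice or MRL/+ replicate 3. With the MRL/+ Cy5 mice left out, 5.03% of all genes passed in MRL/lpr against MRL/+, against 14.4% with them. In Fn14ko against MRL/+ the shares were 0.0347% and 0.954%. Of 78 mitochondrial ribosomal protein genes, 4 were lower in MRL/lpr against MRL/+ (Mrpl1, Mrpl10, Mrpl37 and Mrpl47, the last at -1.02), 0 passed in Fn14ko against MRL/+, and 1 was lower in MRL/lpr against Fn14ko (Mrps11, -0.61), with medians of -0.07, 0.11 and -0.20. Of 63 ribosome biogenesis factors, 1 was higher (Utp6, 1.07) and 3 lower in the first comparison (Utp15, Wdr36 and Nob1, a nuclease that matures the small subunit RNA, the last at -1.10, limma adjusted p = 0.0291) and 0 in the others, with medians of 0.05, 0.10 and -0.07. None of 10 elongation factors passed, and of 29 initiation factors 1 did, Eif2s3x, a subunit of the factor that brings the initiator transfer RNA (-0.98 in MRL/lpr against MRL/+, limma adjusted p = 0.0170). Among 17 other 5′ TOP messenger RNAs 1 was higher in the first comparison (Nap1l1, 0.74). The 4 ribosome components with other names (Fau and Rack1 among them) did not pass, with medians of 0.56, 0.58 and 0.07.

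Myc, the transcription factor that drives ribosome production, was lower in MRL/lpr against MRL/+ (-1.12, limma adjusted p = 0.00834) and against Fn14ko (-1.07, limma adjusted p = 0.0174). On the list of mTOR and Myc genes, 3 of 21 were higher (Eif4ebp3, Mxd1 and Tsc1) and 1 lower (Myc) in the first comparison, 0 in the second and 1 lower in the third. Trp53, the gene of p53, was lower in MRL/lpr against MRL/+ (-2.16, limma adjusted p = 0.00235) and in Fn14ko against MRL/+ (-2.09, limma adjusted p = 0.0194). These comparisons share the MRL/+ mice. Of the 13 genes listed for the p53 and Mdm2 response to free ribosomal proteins, 1 was higher and 1 lower in the first comparison, 0 and 1 in the second, and 1 and 0 in the third. The gene that rose in the first was Zmat3 (0.94) and in the third Sesn2 (0.65). The list medians were 0.16, 0.03 and 0, and in the third comparison Sesn1 was lowest (-0.69, limma adjusted p = 0.155).

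**Figure D5:**
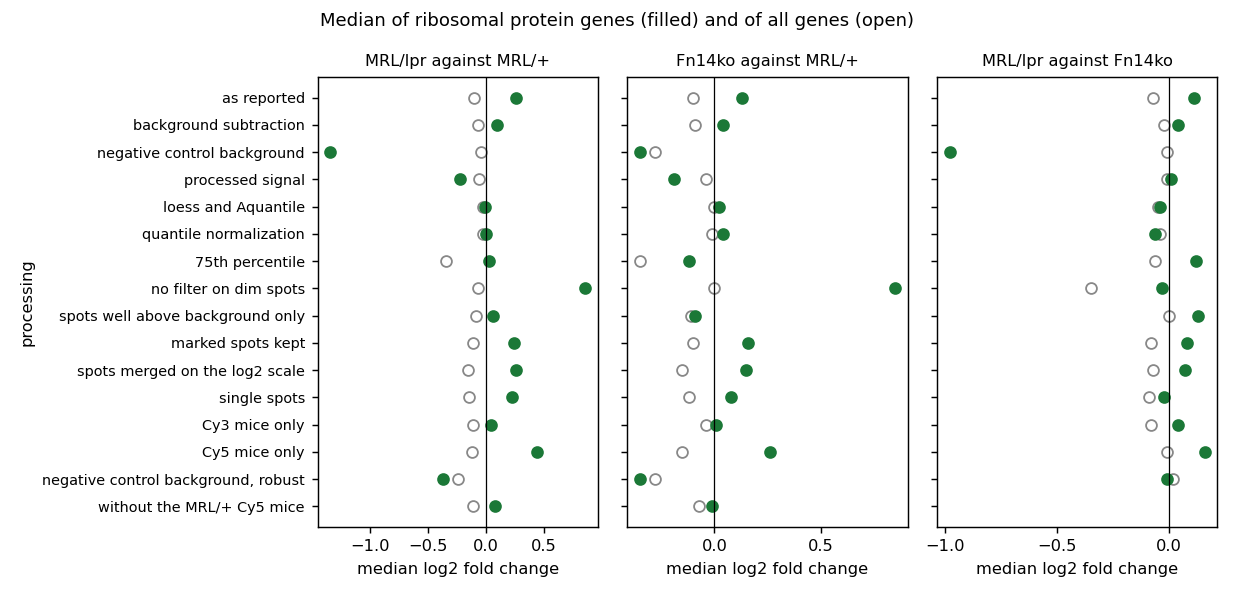
Median log2 fold change (horizontal axes) of ribosomal protein genes (filled) and of all genes (open) under each way of processing (vertical axis), 1 panel per comparison. The filled points lie between -1.34 and 0.86 in MRL/lpr against MRL/+, on both sides of 0.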

How the data were processed

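Cortical RNA of 12 mice was labelled with Cy3 or Cy5 and hybridised to 6 Agilent arrays of 60-base probes, and the deposited values are spot and local background intensity from Agilent Feature Extraction 12.1.0.3 per the file headers. The authors removed corrupted spots and those under 2 times background and normalized to medians. Here marked and dim spots were removed, background was corrected with normexp (offset 50), each channel was divided by its median, spots of a gene were averaged, and log2 values were fitted in limma 3.58.1 (R 4.3.3) with group and dye as terms and array as a random block (correlation 0.316), with Benjamini-Hochberg adjustment over 17302 genes at 0.05. The precision is limited by 4 mice per group. Labels name separate mice, but those of a group share arrays. Figures used matplotlib 3.10.9.

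Members and gene lists were chosen with earlier results of these data known. Genes were named by rule: in each comparison the 5 highest and 5 lowest fold changes, the 3 highest and 3 lowest in mean signal (which ranks no abundance, since probes differ), the stalk proteins, Rpsa, Rps27a, the paralogs with their partners, genes whose spots differ by over 1 log2 unit, members with no kept spot, and the extremes of each list. List genes past the threshold, Rpl12, and single spots were named after their values were seen. Alternatives covered background, scaling, filters, merging, blocks, dyes, omission of single mice or arrays, and the methods' t-test. No column of values was left unmapped. A few genes that the rule names are not reported here.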

Additional observations from a re-analysis of the deposited data

Results flagged for a closer look

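In 9 of 90 groups of 4 mice, over 30 named members, 1 mouse stood apart from the other 3 by Dixon's test, which flags about 1 in 20 groups by chance. Over all members it was 11 of 243 groups (4.53%). In MRL/lpr, Rpl3 replicate 2 read 121 (others 43.2 to 50.2) and Rps4l replicate 1 read 0.593 (others 0.960 to 0.989). In Fn14ko, replicate 4 read 9.66 for Rpl31 (others 11.8 to 12), 7.83 for Rpl39 (others 10.1 to 10.5) and 6.57 for Rps19 (others 5.78 to 5.90). In the same group Rpl30 replicate 3 read 0.556 (others 0.756 to 0.802) and Rps27l replicate 2 read 2.27 (others 2.48 to 2.51). In MRL/+, Rpl22l1 replicate 3 read 14.8 (others 8.48 to 9.30) and Rplp2 replicate 1 read 48.6 (others 77.1 to 81.9).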

How the results depend on the processing

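Counts of members past the threshold are given for MRL/lpr against MRL/+, Fn14ko against MRL/+ and MRL/lpr against Fn14ko in that order (3, 1 and 0 as reported). They were 6, 6 and 4 with background subtraction, 81, 1 and 70 with the negative control background, 11, 8 and 5 from the processed signal, 6, 5 and 7 after loess and Aquantile, 7, 6 and 9 after quantile normalization, and 1, 1 and 3 after scaling to the 75th percentile. They were 0, 0 and 0 with no filter on dim spots, 7, 4 and 6 with only spots well above background, 2, 0 and 0 with marked spots kept, 3, 1 and 1 with spots merged on the log2 scale, 2, 1 and 2 with no dye term, 8, 6 and 3 with no array block, and 1, 1 and 1 with only the groups compared. The Cy3 mice alone gave 0, 0 and 0, the Cy5 mice alone 18, 15 and 0, and the methods' t-test 0, 0 and 2 after Benjamini-Hochberg adjustment and 8, 7 and 15 before it. Of the alternatives chosen after seeing the data, the robust negative control background gave 10, 6 and 3, and leaving out the MRL/+ Cy5 mice gave 0 and 0. Leaving out 1 mouse or array gave 0 to 23, 0 to 12 and 0 to 1 calls, the highest without MRL/+ replicate 3 (23 and 12). Without the second MRL/+ array 20 members passed in the first comparison, as did 24.6% of all genes. With the replicate number as a block, 9, 2 and 4 members passed. The medians stayed at 0.26, 0.13 and 0.11, as they must, since every group holds the same replicate numbers. The numbers were not taken to pair the mice, since same-numbered mice correlated at 0.26 to 0.57 for number 2 and 0.28 to 0.72 for number 3, but at -0.13 to 0.21 for number 1 and -0.03 to 0.21 for number 4, and the labels name no shared litter or day.

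The shares of all genes that passed, in the same order, were 29.7%, 16.4% and 16.5% with background subtraction, 84.2%, 19.9% and 83% with the negative control background, 20.9%, 8.62% and 7.5% with its robust form, 17.7%, 5.85% and 10.9% from the processed signal, 27.1%, 8.22% and 12.8% after loess, and 26.3%, 8% and 11.6% after quantile normalization. They were 29.7%, 11.5% and 16.1% with only spots well above background, 30%, 10.9% and 10.3% with no array block, 32.3%, 6.99% and 9.39% with the replicate block, and 26.3%, 27.7% and 2.94% in the Cy5 mice alone. Before adjustment the methods' t-test passed 27.4%, 15.4% and 23.4%, and after it 7.63%, 0.0116% and 2.56%. Scaling to the 75th percentile gave 17.2%, 3.49% and 5.47%.

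Medians of MRL/lpr against MRL/+ were -1.34 (negative control background), -0.37 (its robust form), -0.22 (processed signal), -0.01 (loess), 0 (quantile), 0.03 (75th percentile), 0.05 (Cy3 mice) and 0.86 (no filter on dim spots). Those of Fn14ko against MRL/+ were -0.35 (both negative control forms), -0.19 (processed signal), -0.12 (75th percentile), -0.09 (well above background), -0.01 (without the MRL/+ Cy5 mice) and 0.85 (no filter on dim spots). Those of MRL/lpr against Fn14ko were -0.98 (negative control background), -0.06 (quantile), -0.04 (loess), -0.03 (no filter on dim spots), -0.02 (single spots) and -0.01 (robust). By single spots a gene took its middle spot in fold change, or the lower of the middle pair, which biases that setting downward. Leaving out 1 mouse or array gave medians of 0.08 to 0.46, -0.06 to 0.38 and 0.01 to 0.15.

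Single genes changed sign as follows in MRL/lpr against MRL/+. With the negative control background Rpl31 had -1, Rpl32l -0.86, Rpl39 -1.18, Rps21 -1.14, Rps26 -1.29, Rpl12 -0.89, Rpl41 -0.77, Rpl30 0.44 and Rpl7l1 1.19, and Rpl41 had 0 in the robust form. From the processed signal Rpl31 had -0.54, Rpl32l -0.07, Rpl39 -0.39, Rps21 -0.54, Rps26 -0.70 and Rpl7l1 0.43. With no filter on dim spots Rpl30 had 0.18, Rpl7l1 0, Rplp2 0.17 and Rps19 0.38. By single spots Rpl31 had -0.54, which is the lower and dimmer of its 2 kept spots, while the other had 0.76. The Cy3 mice alone gave Rps21 -0.10 and Rps26 -0.01, and leaving out the MRL/+ Cy5 mice gave Rps21 -0.07 and Rps26 -0.06. Rps19 ran from -0.49 to 0.06 over the omissions, the latter without the second MRL/+ array. In Fn14ko against MRL/+ the processed signal gave Rpl27a -0.15, Rpl31 -0.38, Rpl32l -0.02, Rpl39 -0.32, Rps26 -0.19 and Rpl7l1 0.13. With no filter on dim spots Rpl22l1 had 0.34, Rpl24 0.39, Rpl5 0.32 and Rpl7l1 0.04. By single spots Rpl31 had -0.32, again its lower spot, while the other had 0.86. Rpl24 ran from -0.69 to 0.02 over the omissions, the latter without the second MRL/+ array. In MRL/lpr against Fn14ko the negative control background gave Rpl35a -0.70, Rpl5 -0.57, Rps19 -0.71, Rps21 -0.80, Rps24 -0.26 and Rpl30 0.40. On the MRL/lpr arrays the negative control spots had an SD of 1510 to 2960 around medians of 27.4 to 54.8, against an SD of 3.84 to 24.4 elsewhere. The other causes were not tested. Rps19 in Fn14ko against MRL/+ and Rps4l in MRL/lpr against MRL/+ kept their direction under all 33 alternatives, past the threshold in 21 and 24. Several of these alternatives, such as no dye term or no array block, cannot change the fold change of either gene. Signal over background limits members close to or below the channel median, such as Rpl7l1, Rpl30 and Rps4l.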
